A study of Mus musculus with 15 samples.

Results

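The piRNA cluster chr14_24079101_24149884 spans 70784 bp of mouse chromosome 14, from 24079101 to 24149884 (mm10). It was chosen by a measured value: 1 of the 2 largest rises after immunoprecipitation with an antibody to pseudouridine (Ψ) was at a 31-nt locus inside it. A locus here is a mapped small RNA with its chromosome, start, end and strand, so that RNAs of different length that share a start are separate loci. All loci that overlap the interval, on both strands and of all lengths, were taken as members, and there were 183183 of them among the 8128951 loci in the 15 libraries. The mock and CMC libraries held 106879 of the members, the input, Ψ-IP and flow-through libraries held 136370, and 60066 were found in both sets.

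All libraries were made from RNA of 17 to 40 nt from testes of 8-week-old male C57Bl/6 mice. There were 5 groups of 3 libraries. In 1 experiment RNA was treated with CMC, a carbodiimide that forms an adduct with Ψ, or was mock treated. In the other, RNA was bound by a Ψ antibody (Ψ-IP), and the unbound RNA (flow-through) and the starting RNA (input) were sequenced beside it. The experiments used different library kits (NEBNext and Nextflex), so a difference between mock and input cannot be told apart from a difference between kits. Nothing in the labels says that the replicates came from separate mice, so p-values measure the spread between these libraries, which may be technical. Libraries held 11575705 to 58399368 counts, and the cluster held 330407 to 1638357 of them.

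piRNAs are small RNAs of the germ line that bind PIWI proteins, and in the adult testis most are cut from long precursor transcripts of clusters like this one. The precursor is cleaved to give a 5′ end, and the 3′ end is then trimmed and methylated, so that a 5′ end is usually shared by RNAs of several lengths. Ψ is an isomer of uridine. An adduct of CMC on Ψ stops reverse transcriptase, and the treatment is meant to deplete RNAs that carry Ψ from the library. The descriptions used here differ on which adapter had been ligated before the treatment, which bears on whether a cDNA that stops early is lost or is read as a shorter RNA.

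The cluster was dense with loci at its 5′ side and nearly empty at its 3′ side. Within it lies Mir7210, an annotated microRNA gene on the plus strand from 24088877 to 24088930. RefSeq lists a long noncoding RNA, Gm52142, from 24111113 to 24120165, which spans the locus that chose the cluster. The last 15932 bp overlap the 3′ end of Dlg5, a gene for a scaffold protein of cell junctions, which is on the minus strand from 24133953 to 24245920. The nearest annotated gene before the cluster was the long noncoding RNA Gm31392, 3192 bp away on the minus strand, and the nearest that starts after it was Gm49098, 20275 bp away within Dlg5.

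Mature miR-7210-5p is printed with the seed (bases 2 to 8) in capitals, because its first base, 24088877, was a common 5′ end in all libraries. The 21-nt and 30-nt loci that start at the same base follow, with the bases of the longer one that lie beyond the annotated microRNA in capitals, and then miR-7210-3p with its seed in capitals. All are on the plus strand, from RefSeq (GRCm38.p6, the mm10 assembly), 5′ to 3′. No other of the 1738 mature microRNAs in that table shares the seed of miR-7210-5p.
miR-7210-5p, 24088877 to 24088899: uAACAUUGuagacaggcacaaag
21-nt locus, 24088877 to 24088897: uaacauuguagacaggcacaa
30-nt locus, 24088877 to 24088906: uaacauuguagacaggcacaaagAUCCCCU
miR-7210-3p, 24088907 to 24088930: uUAUAUGUaaguaacaauguggcu

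In total count the cluster was rank 13 of the 647 listed clusters in both the mock and the input libraries. It took 2.76% to 2.81% of the counts of a mock library and 2.76% to 2.84% of a CMC library. The share was 2.98% to 3.02% in input, 2.83% to 2.89% in Ψ-IP and 2.96% to 3.02% in flow-through, so that each Ψ-IP library was below each input library. Scaled by the TMM-normalised library sizes of edgeR (CPM below), the cluster held 30252 ± 375 CPM in mock (SD, n = 3). The clusters on either side of it in the mock order, both on other chromosomes, held 32081 ± 394 and 28392 ± 103 CPM.

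Nearly every count was on the plus strand. The minus strand held 0.178% to 0.222% of the counts in CMC, 0.185% to 0.197% in mock, 0.200% to 0.226% in input, 0.224% to 0.247% in flow-through and 0.150% to 0.154% in Ψ-IP. Of the loci, 176483 were on the plus strand and 6700 on the minus strand. The plus-strand share did not differ between CMC (99.805% ± 0.0243) and mock (99.810% ± 0.00655) beyond the spread of the libraries (exact permutation test, two-sided, p = 1, n = 3 against 3, where the smallest p possible is 0.1).

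Counts along the plus strand fell into a pair of stretches. The first 18 kb held 73.4% ± 0.185 of the counts in mock and 63.8% ± 0.431 in input. From 18 to 23 kb there was a trough with 0.674% ± 0.0205 of mock counts, then a second stretch from 23 to 44 kb with 25.8% ± 0.175 in mock and 35.03% ± 0.383 in input. The last 27 kb, where the cluster meets Dlg5, held 0.144% ± 0.00112 in mock. The 5 windows of 1 kb, taken by strand, with the most summed counts in mock and input were all on the plus strand in the first stretch. The deeper mock libraries gave most of that sum. The highest, 5 to 6 kb from the start, held 3813 ± 70.3 CPM in mock. The window next to it, 6 to 7 kb from the start, held 3727 ± 152, and the one at 11 kb 3490 ± 103. Both others, at 15 and 4 kb, held 1680 ± 1.95 and 1422 ± 17.97. In input the window at 5 kb held 3733 ± 91.4 CPM, and those at 11 and 6 kb 2109 ± 25.8 and 2097 ± 20.7, so that the window at 5 kb stood further above them than in mock. Next in input came a window of the second stretch, at 27 kb, with 1972 CPM.

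**Figure D1:**
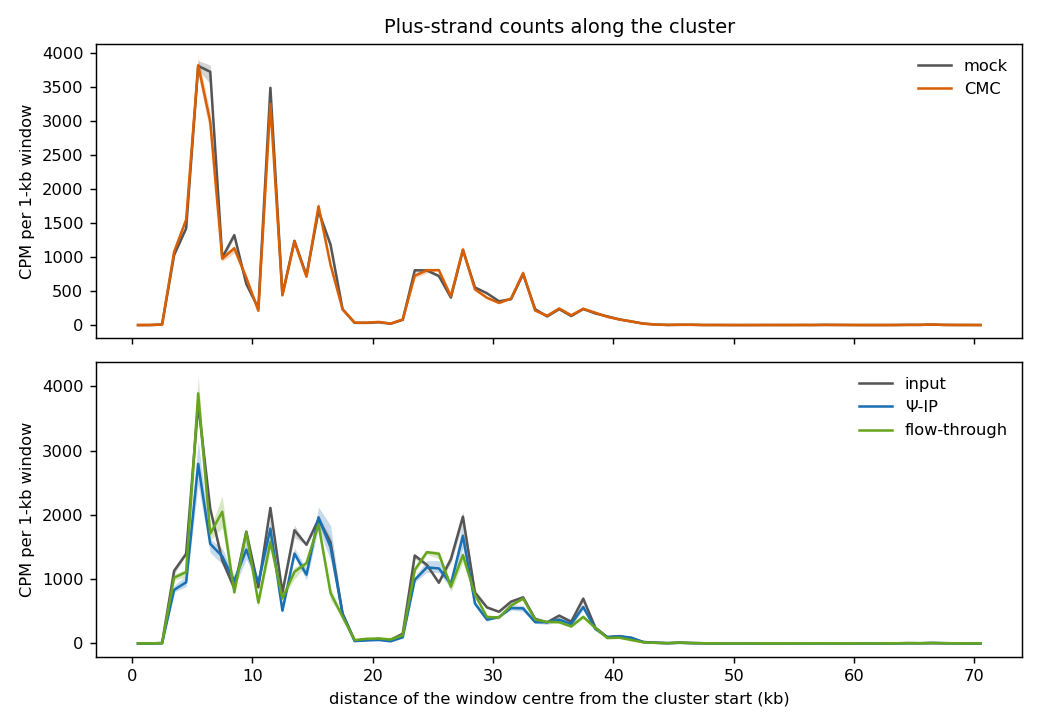
Plus-strand CPM in 1-kb windows against the distance of the window from the cluster start (kb), with the group mean as a line and the range of the 3 libraries as a band. Mock and CMC are in the upper panel and input, Ψ-IP and flow-through in the lower one. Both panels show the 2 stretches, the trough from 18 to 23 kb and the empty last 27 kb.

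Lengths were those of adult testis piRNAs. RNAs of 29 to 31 nt, the size bound by MIWI (PIWIL1), made up 56.5% to 58.6% of the cluster's counts in mock, 53.7% to 56.7% in CMC, 61.6% to 63.0% in input, 64.2% to 65.8% in Ψ-IP and 60.7% to 62.5% in flow-through. No member in a mock or CMC library was longer than 33 nt, whereas in the other libraries lengths reached 44 nt. With CMC the share at 29 to 31 nt was 55.5% ± 1.60 against 57.8% ± 1.15 in mock, and the libraries overlapped (exact permutation test without pairing, two-sided, p = 0.2), although the CMC library was the lower in each of the 3 same-numbered pairs. At 26 to 28 nt the CMC libraries (25.9% to 26.2%) were all above the mock libraries (24.74% to 25.02%), with an exact permutation p = 0.1, the smallest that 3 against 3 allows.

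Most counts were at loci outside annotated repeats, 92.6% to 93.2% in the mock and CMC libraries and 86.6% to 88.7% in the others. The 31547 loci that overlap Gm52142 held 6.93% to 7.08% of the cluster's counts in mock and 9.01% to 9.46% in input. The repeat with the most counts was the LINE L2c, with 2.05% to 2.18% in mock and 3.63% to 3.77% in input. No single RNA dominated. The 10 most abundant loci of a library held 10.4% to 11.2% of its cluster counts in mock and 5.01% to 5.24% in input.

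The locus that chose the cluster is on the plus strand from 24113611 to 24113641, 34.51 kb from the cluster start, in the second stretch and outside repeats. Its Ψ-IP values are given as a description, with no test, since they chose the cluster. It held 99, 202 and 268 counts in the Ψ-IP libraries, 30, 58 and 11 in input, and 21, 39 and 10 in flow-through. All Ψ-IP libraries were above all others, and replicate 2 was the highest input and the highest flow-through library. On the CPM scale this was 13.3 ± 4.98 in Ψ-IP, 2.13 ± 1.84 in input and 1.39 ± 0.878 in flow-through. The log2 fold change of Ψ-IP against input was 2.80 (SE 0.34), and it ran from 2.39 without input replicate 3 to 3.64 without input replicate 2. Against flow-through, which uses the same Ψ-IP libraries, it was 3.46 (SE 0.37). Among the loci of the series that were ranked with it, 1 locus on chromosome 5, within an ERVK element, stood above it by less than the second decimal (2.80), and the next below, on chromosome 3, had 2.77.

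The same locus was rare in the other experiment, with 5, 5 and 1 counts in mock and 7, 3 and 3 in CMC. Its log2 fold change with CMC was 0.57 (SE 0.64, edgeR quasi-likelihood test, adjusted p = 0.766), and no difference was detectable at this depth.

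Loci with the same 5′ end and other 3′ ends were for the most part also higher in Ψ-IP. The 30-nt locus held 48, 108 and 113 counts in Ψ-IP, 11, 54 and 6 in input, and 17, 14 and 6 in flow-through. The 32-nt locus held 3, 12 and 36 counts in Ψ-IP against 6, 6 and 1 in input, so that at 32 nt the groups overlapped. Summed over all 18 loci at that 5′ end, Ψ-IP held 166, 360 and 470 counts and input 59, 131 and 23. For the sum the log2 fold change was 2.53 (SE 0.35). These loci share reads of the same precursor and the same start, so they are not separate evidence.

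Other 5′ ends within 50 bases of it did not move in 1 direction. At 24113594, Ψ-IP held 75, 55 and 128 counts and input 23, 18 and 25. At 24113633, which lies inside the chosen locus, Ψ-IP held 176, 258 and 359 counts, input 355, 211 and 253, and flow-through 24, 23 and 12. Flow-through was thus far below input there, with a log2 fold change of -3.69 (SE 0.26), while Ψ-IP and input differed by 0.36 (SE 0.20). At 24113652, Ψ-IP held 7, 2 and 11 counts and input 71, 54 and 51. Here the log2 fold change was -2.78 (SE 0.39). RNAs from starts a few bases apart thus lay on both sides of 0.

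**Figure D2:**
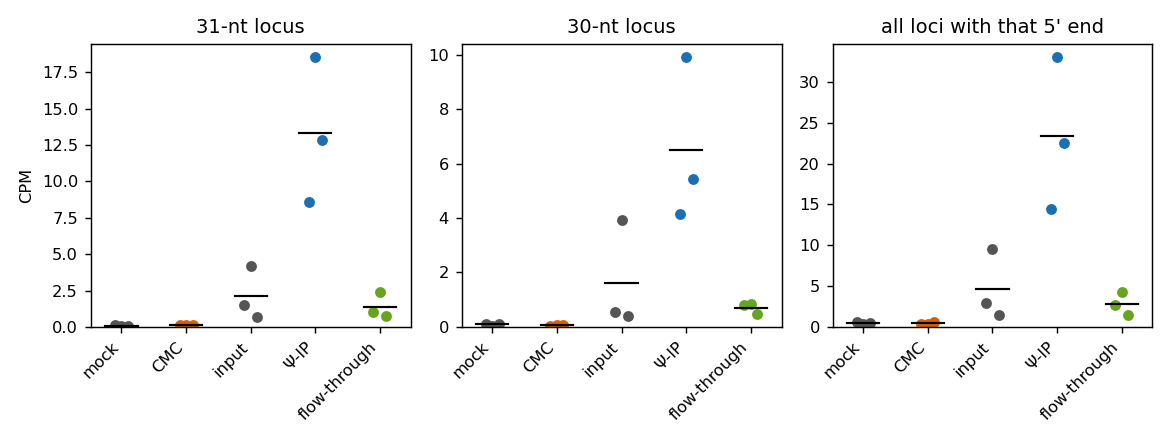
CPM of the 31-nt locus that chose the cluster, of the 30-nt locus with the same 5′ end and of all 18 loci with that 5′ end, in each library (points, with the group mean as a bar). Each Ψ-IP point lies above every other point in the panels for the 31-nt locus, the 30-nt locus and the sum, and the second input library is the highest of its group.

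Of the members with more than 20 counts over the Ψ-IP and input libraries, 15923 could be tested, and 1051 were higher and 2218 lower in Ψ-IP (edgeR, adjusted p under 0.01). Over all loci 7.94% were higher and 12.0% lower. The contrast chose the cluster, so nothing is read from these counts. Without input replicate 1 the members called numbered 451 higher and 1232 lower, and without input replicate 3 there were 525 and 1386. The median log2 fold change was -0.17 for the members and -0.03 for all loci. The cluster's sum had a log2 fold change of -0.06 (SE 0.02). Against flow-through, 1473 of 15356 members were higher in Ψ-IP and 728 lower, where 10.8% and 5.10% of all loci were. In flow-through against input, 1314 of 17415 members were higher and 1867 lower, beside 8.60% and 10.6% of all loci. These comparisons share the Ψ-IP or the input libraries with the first.

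Among the 797 members with at least 100 counts per Ψ-IP and input library on average, 214 were higher in each of the 9 pairs of libraries and 320 were lower in each. Over all such loci of the series the shares were 31.6% and 37.3%. Behind the locus that chose the cluster, the next largest rise was in the ERV1 element LTRIS4. The 30-nt locus there, 24093886 to 24093915, held 205, 101 and 320 counts in Ψ-IP, 39, 35 and 43 in input, and 351, 194 and 205 in flow-through. Here the flow-through rose beside the Ψ-IP, with a log2 fold change against input of 2.66 (SE 0.27) in flow-through and 2.69 (SE 0.27) in Ψ-IP. The 31-nt locus from the same start had 2.40 (SE 0.24) in Ψ-IP. A locus in the LINE L1MB5, 24102915 to 24102946, held 254, 278 and 577 counts in Ψ-IP, 93, 76 and 79 in input, and 399, 282 and 172 in flow-through. It too was higher than input in both fractions. The locus 24088854 to 24088883, which ends inside Mir7210, held 147, 110 and 330 in Ψ-IP, 55, 38 and 36 in input and 78, 80 and 59 in flow-through.

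The 5 largest falls in Ψ-IP were at loci of 26 to 30 nt. At the MTD element of the MaLR family, the locus 24116989 to 24117017 held 8, 5 and 12 counts in Ψ-IP against 362, 141 and 222 in input. Its log2 fold change was -4.48 (SE 0.33). The 26-nt locus 24084236 to 24084261 held 7, 7 and 15 in Ψ-IP against 248, 150 and 237 in input. It was common in mock, with 585, 963 and 755 counts, and was not called with CMC (977, 399 and 545 counts, log2 fold change 0.06, edgeR adjusted p = 0.888). The other 3 loci lie from 24087092 to 24087121, from 24095445 to 24095474 and from 24092822 to 24092849, and had log2 fold changes of -3.64, -3.64 and -3.58. All 5 were lower in Ψ-IP than in flow-through as well.

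CMC against mock used no library of the contrast that chose the cluster. The sum of the cluster did not differ in the fit of cluster sums, with a log2 fold change of 0.02 (SE 0.02, edgeR quasi-likelihood test, adjusted p = 0.568). In that fit 2.17% of the 646 clusters tested were called. On the CPM scale the cluster held 29016 ± 844 in CMC against 30252 ± 375 in mock, and each CMC library was below each mock library. The fit scales the libraries on cluster sums and CPM scales them on loci, so the direction depends on the scaling. Of the 15679 members with more than 20 counts, 151 were higher with CMC and 115 lower at an adjusted p under 0.01, which is 0.963% and 0.733%. Over all loci of the series 1.07% were higher and 0.654% lower, so the cluster was near the background in both directions. The adjusted p-values given for CMC are from this fit, which has no term for the replicate number. With the number as a block, 171 members were higher and 165 lower, beside 1.24% and 1.03% of all loci. Without mock replicate 2 only 74 members were higher and 31 lower, and without CMC replicate 2 there were 97 and 42.

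The members that fell with CMC were longer at the median than those that rose, and had more counts in mock. The median length was 29 nt for those lower, 26 nt for those higher and 28 nt for those not called. Of the loci called lower, 70 (60.9%) were 29 to 31 nt long, compared with 19 (12.6%) of those called higher and 5545 of the 15413 not called. Another 37 of those lower (32.2%) were 28 nt or shorter. The median mock count was 280.0 for the loci lower, 6.67 for those higher and 11.3 for the rest. Among the 114 called loci with at least 100 counts per library on average, 90 were lower and 24 higher, which is 5.83% and 1.55% of the 1544 members of that abundance. The average is over mock and CMC, so a called locus can pass it through the group where it is high. Over all such loci of the series 5.0% were lower and 2.45% higher, so falls outnumbered rises there too.

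**Figure D3:**
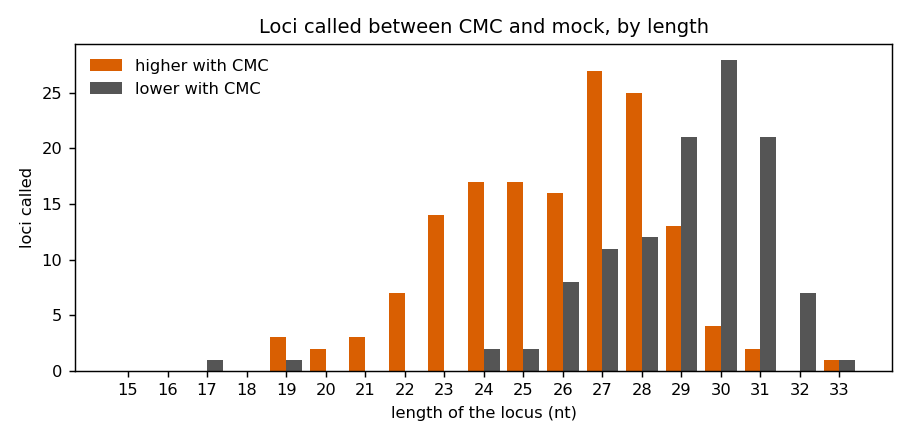
Number of members called higher (orange) or lower (grey) with CMC at each length in nt. Loci called lower are most frequent at 30 nt (28 loci), and those called higher at 27 nt (27 loci).

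The strongest fall with CMC among those 114 was at the 30-nt locus 24104202 to 24104231, which lies 25.1 kb from the cluster start. It held 226, 198 and 67 counts in mock and 61, 34 and 26 in CMC, or 4.12 ± 2.54 against 1.25 ± 0.229 CPM. The first mock library was the highest and the groups did not overlap on either scale. The log2 fold change was -1.70 (SE 0.26, edgeR adjusted p = 2.27e-05). By the Wald test of DESeq2 the adjusted p was 0.0765. In the other experiment this locus held 549, 784 and 956 counts in Ψ-IP, 394, 235 and 206 in input, and 34, 40 and 44 in flow-through. The log2 fold change of Ψ-IP against flow-through was 4.71 (SE 0.31).

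The most abundant member that fell was at 24085238, 6.14 kb from the start. Its 30-nt locus, 24085238 to 24085267, had the highest mean CPM of the cluster in mock, with 20061, 37652 and 25424 counts, and held 17082, 7087 and 8845 in CMC. On the CPM scale this was 668 ± 50.8 in mock and 335 ± 39.8 in CMC, and no libraries overlapped. The log2 fold change was -0.99 (SE 0.11, edgeR adjusted p = 1.1e-08), and the adjusted p was 0.0276 when loci of all counts were tested. Its 28-, 29- and 31-nt forms fell too, by 1.13, 1.03 and 1.02 on the log2 scale. In Ψ-IP the 30-nt locus held 351, 442 and 713 counts, in input 486, 369 and 289, and in flow-through 85, 193 and 108. A neighbour of nearly the same abundance, which was the higher of the 2 in mock replicate 3, was not called. The locus 24085376 to 24085405 held 18578, 36209 and 26316 counts in mock and 23840, 12905 and 16147 in CMC (log2 fold change -0.23, SE 0.11, edgeR adjusted p = 0.333), and 829, 1302 and 965 in flow-through against 1033, 922 and 870 in input.

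Among the 10 members with the highest mean CPM in mock and input, those at 24085238 and at 24087547 were called with CMC. The 29-nt locus 24087547 to 24087575 held 7734, 14661 and 8691 counts in mock and 8403, 3810 and 5055 in CMC (log2 fold change -0.48, SE 0.11, edgeR adjusted p = 0.00623). That call was lost without any 1 of the mock libraries (adjusted p = 0.0183, 0.165 and 0.0269) and without CMC replicate 2 (adjusted p = 0.0639). The order of these 10 members differed between the experiments. The locus 24084115 to 24084144, in the L2c element, held 70, 80 and 56 counts in mock but 5961, 3460 and 4634 in input. The locus 24092815 to 24092844 held 10619, 16343 and 12092 in mock and 461, 246 and 321 in input. Library kit and experiment cannot be told apart in these differences.

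Not every abundant RNA that was low in flow-through was called lower with CMC. The locus 24090641 to 24090671 held 1650, 2205 and 3930 counts in Ψ-IP and 592, 886 and 547 in flow-through, a log2 fold change of 2.31 (SE 0.24). With CMC it held 8802, 3758 and 4642 counts against 6096, 10805 and 7116 in mock, and was not called (log2 fold change -0.14, SE 0.11, edgeR adjusted p = 0.627). The locus 24095482 to 24095511 held 2944, 6062 and 4870 in Ψ-IP and 1096, 1942 and 1080 in flow-through, and held 149 ± 11.8 CPM in mock and 125 ± 6.13 in CMC, where no libraries overlapped. Its log2 fold change with CMC was -0.25 (SE 0.11, edgeR adjusted p = 0.26), which did not pass the test over all loci.

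Of the other named falls with CMC, several share the stretch near 24085238. The 31-nt locus 24085252 to 24085282 starts 14 bases downstream of it and held 288, 487 and 333 counts in mock and 235, 99 and 118 in CMC (log2 fold change -0.95, SE 0.15, edgeR adjusted p = 1.43e-05). The 30-nt locus 24085240 to 24085269, 2 bases downstream of it, held 170, 296 and 184 in mock and 152, 65 and 56 in CMC. These RNAs overlap each other, so their falls are not independent. The 32-nt locus 24089321 to 24089352 held 148, 273 and 180 counts in mock and 110, 54 and 63 in CMC, a log2 fold change of -1.04 (SE 0.16, edgeR adjusted p = 3.17e-05). The locus 24105282 to 24105312 held 555, 1023 and 475 in mock and 261, 173 and 320 in CMC, and fell in scaled CPM from 16.3 ± 3.01 to 8.36 ± 3.35. It was nearly absent from the other experiment, with 0 to 10 counts in each library.

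Named rises with CMC were at RNAs of 21 to 31 nt. The 22-nt locus 24093483 to 24093504 held 82, 128 and 107 counts in mock and 249, 129 and 252 in CMC (log2 fold change 1.38, SE 0.18, edgeR adjusted p = 6.97e-07). The 25-nt locus 24114983 to 24115007, in the second stretch, held 61, 115 and 76 in mock and 236, 103 and 114 in CMC (log2 fold change 1.19, SE 0.17, edgeR adjusted p = 3.8e-06). Neither had more than 3 counts in an input, Ψ-IP or flow-through library. The 26-nt locus 24084169 to 24084194 rose by 1.04 on the log2 scale, and had a log2 fold change in Ψ-IP against flow-through of 2.36 (SE 0.32).

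Loci that fell with CMC lay above flow-through in Ψ-IP. Of the 115, 101 had more than 20 counts over the Ψ-IP and flow-through libraries, and 97 of these had a log2 fold change above 0, with a median of 2.35. No such share is given for all loci of the series called lower with CMC, so it cannot be called particular to this cluster. A value above 0 can reflect a low flow-through as well as a high Ψ-IP. Among the 7107 members that passed this minimum in both comparisons and were not called with CMC, 3394 lay above 0 and the median was -0.08. For the 50 that rose with CMC the median was -0.31, a sign that did not hold, since it was 0.23 to 0.87 without any 1 of the mock libraries or CMC replicate 2. The loci that fell were more abundant than the rest. Restricted to members with at least 100 counts per mock and CMC library on average, the median was 2.50 for 84 that fell and -0.05 for 1349 not called. The mock and CMC libraries share no library with Ψ-IP or flow-through. The values are a description, with no test, because loci of 1 start are not independent and Ψ-IP chose the cluster.

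Ψ-IP against input chose the cluster, so nothing is read from its values for these loci. Leaving out each mock or CMC library in turn left 31 to 161 loci called lower, and their median in Ψ-IP against flow-through stayed between 2.13 (without CMC replicate 1) and 2.97 (without mock replicate 2).

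**Figure D4:**
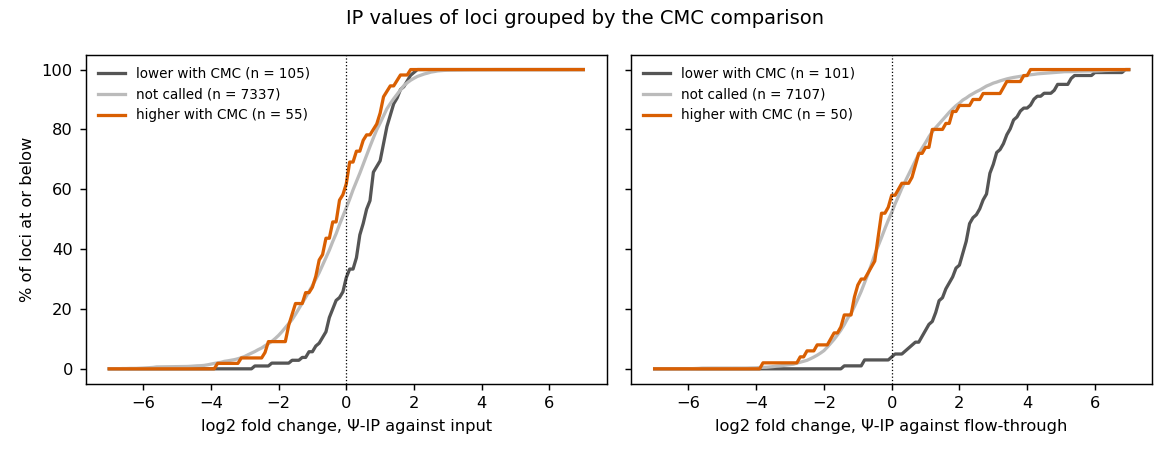
Cumulative share of members (%) by their log2 fold change in Ψ-IP against input (left) and in Ψ-IP against flow-through (right), for members called lower with CMC, called higher with CMC, or not called. The left panel plots the contrast that chose the cluster. In the right panel the curve of the loci lower with CMC (n = 101, median 2.35) lies to the right of the others, and those not called have a median of -0.08. The median of those higher, -0.31, turned positive (0.23 to 0.87) without any 1 of the mock libraries or CMC replicate 2.

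Summed by 5′ end, 69 of 6116 ends were higher with CMC and 69 lower, where 1.17% and 1.02% of all 5′ ends of the series were. Without mock replicate 2 this was 38 and 31, and without CMC replicate 2 it was 44 and 37. Of the 1025 ends with at least 100 counts per library on average, 60 (5.85%) were lower and 7 (0.683%) higher, where 5.78% and 1.62% of all such ends of the series were. Among these called ends, the 5 strongest falls were at 24104202, 24085238, 24105282, 24112208 and 24095937. The end at 24104202 reached the average of 100 only through mock. The end at 24112208 held 1618, 2909 and 1890 counts in mock and 1433, 684 and 728 in CMC, a log2 fold change of -0.85 (SE 0.11, edgeR adjusted p = 2.12e-06). It also held 62, 81 and 60 counts in flow-through against 426, 317 and 284 in input. At 24095937 the mock libraries held 3070, 5070 and 3227 counts and the CMC libraries 2747, 1299 and 1127 (log2 fold change -0.84, SE 0.12, edgeR adjusted p = 8.18e-06). Flow-through there held 18, 57 and 30 counts against 968, 580 and 647 in input. The fall at 24105282, -1.01 on the log2 scale, had an adjusted p of 0.0873 by the Wald test of DESeq2, and that at 24104202 one of 0.0322.

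Of the 7 ends of that abundance that rose with CMC, the 3 with the largest fold changes lie 1 or 2 bases downstream of far more abundant ones. Abundance was averaged over mock and CMC, so a rise can itself bring an end into this list. Rarity in mock beside a larger end can follow from that choice, and how far it did was not tested. The other called rises were at rarer ends and were not ranked. The end at 24090642 held 22, 33 and 17 counts in mock and 347, 142 and 182 in CMC, and was among the 7 only through CMC. Its log2 fold change was 3.52 (SE 0.19, edgeR adjusted p = 7.69e-16). The end 1 base upstream of it, 24090641, held 20905, 36806 and 24629 counts in mock and 29521, 13026 and 16257 in CMC and was not called (log2 fold change -0.17, edgeR adjusted p = 0.447). As a share of that upstream end, the counts at 24090642 went from 0.0690% to 0.105% in mock to 1.09% to 1.18% in CMC.

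At 24084934, 2 bases downstream of 24084932, mock held 41, 62 and 38 counts and CMC 496, 254 and 325 (log2 fold change 3.26, SE 0.16, edgeR adjusted p = 2.74e-17). This end too was among the 7 only through CMC. Relative to the upstream end its counts were 0.693% to 0.746% in mock and 8.21% to 12.4% in CMC. The upstream end itself fell, by 0.51 on the log2 scale (SE 0.11, edgeR adjusted p = 0.00433). At 24084163, 1 base downstream of 24084162, mock held 89, 136 and 90 counts and CMC 277, 170 and 188, and the share of the upstream end was 0.749% to 0.795% in mock and 1.63% to 2.25% in CMC. The next 2 of those 7 rises, at 24092242 and 24093507, were 0.75 and 0.70 on the log2 scale and had no end at least 10 times as abundant within 10 bases upstream. Both of these calls were lost without mock replicate 2 (adjusted p = 0.0265 and 0.0111), mock replicate 3 (0.0119 and 0.0429) or CMC replicate 2 (0.0355 and 0.0482), and that at 24092242 also without mock replicate 1 (0.0157).

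The rise in RNAs that begin inside a longer, more abundant RNA was seen over the called loci, in a comparison chosen after the values were seen. Of the 151 members higher with CMC, 104 (68.9%) shared their 3′ end with a longer locus at least 10 times as abundant in mock. The share was 13.0% among those not called and 0.870% (1 locus) among those lower. The low mock counts of the loci that rose make such a partner easier to find, and how far that sets the share was not tested. No such share is given for all loci of the series called higher with CMC. An example is the 29-nt locus 24084074 to 24084102 in L2c, with 75, 128 and 93 counts in mock and 323, 184 and 199 in CMC. Its log2 fold change was 1.63 (SE 0.16, edgeR adjusted p = 2.51e-10). It lacks the first base of the 30-nt locus 24084073 to 24084102, which held 6549, 11442 and 6798 counts in mock and 10600, 6353 and 5541 in CMC and was not called (edgeR adjusted p = 0.294).

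At the first base of miR-7210-5p, 24088877, the libraries differed in length. In mock the 21-nt locus held 1776, 2914 and 2138 counts, which is 28.6% to 33.96% of all counts at that start, and the annotated 23-nt form held 24, 49 and 35. RNAs of 30 and 31 nt, which run past the end of the annotated 5p arm into the loop, made up 34.03% to 41.6%. In input the 21-nt locus held 13, 5 and 10 counts, and 30 and 31 nt made up 72.0% to 74.4%. Neither Ψ-IP (0 to 5 counts) nor flow-through (0 to 4 counts) held more of the 21-nt form. Over the whole cluster, RNAs under 24 nt made up 4.71% to 7.25% of the counts in mock and CMC and 1.24% to 2.04% in the others, and kit and experiment cannot be told apart.

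With CMC the 21-nt locus rose. It held 3356, 2541 and 3259 counts, all but the CMC library of replicate 2 above every mock count, and 101 ± 25.3 CPM against 55.5 ± 2.67 in mock, where no libraries overlapped. The log2 fold change was 0.86 (SE 0.13, edgeR adjusted p = 1.38e-05), and with loci of all counts tested the adjusted p was 0.0324. The 31-nt locus from the same start held 1388, 2731 and 1341 counts in mock and 2315, 1374 and 1401 in CMC (log2 fold change 0.31, SE 0.12, edgeR adjusted p = 0.186). Summed over all lengths the 5′ end was called (log2 fold change 0.47, SE 0.11, edgeR adjusted p = 0.00626). That call rests on few libraries, since it was lost in the fits that left out any 1 library but CMC replicate 1 (adjusted p from 0.0388 without mock replicate 2 to 0.0531 without mock replicate 1), and it was lost with loci of 24 to 33 nt alone (log2 fold change 0.30, adjusted p = 0.123).

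The first base of miR-7210-3p, 24088907, was also a common start, and it directly follows the last base of the 30-nt locus printed above. In mock its 27-nt locus held 509, 961 and 629 counts and the annotated 24-nt form 5, 5 and 5. Its 28-nt locus held 499, 284 and 424 counts in input, 67, 76 and 133 in Ψ-IP and 262, 221 and 166 in flow-through. Neither arm was thus mainly present at its annotated length.

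**Figure D5:**
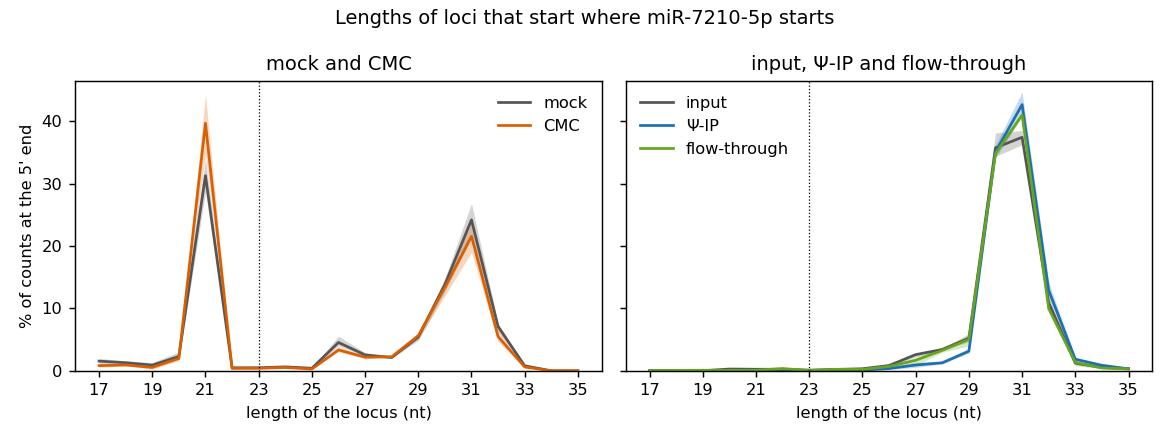
Share of the counts at the first base of miR-7210-5p (%) by the length of the locus (nt), as the group mean with the range of the 3 libraries as a band, and a dotted line at the annotated 23 nt. Mock and CMC have peaks at 21 and 31 nt, and the other groups have 1 peak, at 30 to 31 nt.

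By 1-kb window and strand, 56 windows of the cluster could be tested between CMC and mock, and 1 was higher and 3 lower, where 1.28% and 2.67% of the 4533 windows of the series were. With the replicate number as a block, an alternative to this unpaired fit, 5 were higher and 5 lower, beside 4.41% and 6.62% of all windows in that fit. Among these was the window at 4 kb, 1 of the 5 fullest, which had a log2 fold change of 0.17 and an adjusted p of 0.00253 with the block and 0.0165 without it (edgeR). The lowest was the window at 16 kb, with 1182 ± 36.9 CPM in mock, which fell by 0.38 on the log2 scale (SE 0.04, edgeR adjusted p = 0.000186). It holds the end 24095937. The window at 6 kb, which holds the end 24085238, had a log2 fold change of -0.28 (SE 0.04, edgeR adjusted p = 0.00248). The call at 6 kb was lost without mock replicate 2 (adjusted p = 0.0347) or CMC replicate 2 (adjusted p = 0.0179). Those at 25 kb (0.20, adjusted p = 0.00831) and 29 kb (-0.18, adjusted p = 0.00999) were lost in all fits that left out 1 library but that without CMC replicate 3. The median log2 fold change over the windows was 0.04 in the cluster and 0.00 in the whole series.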

How the data were processed

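Small RNAs from mouse testis were size selected, treated or immunoprecipitated, and sequenced in 15 libraries. The authors clipped adapters, kept reads of 14 to 44 nt, removed tRNA fragments, mapped to mm10 with Bowtie 2 (0 to 3 mismatches), and intersected reads with repeats and a list of piRNA clusters with bedtools. The deposited values are raw counts per locus, with none of the scaling done later, and how reads with several matches were counted is not given in the sources used here. Labels set the groups.

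Counts were joined by locus over the whole series, then tested with edgeR 4.0.16 (R 4.3.3, TMM, quasi-likelihood test, Benjamini-Hochberg over all features, adjusted p under 0.01), for loci and 5′ ends with more than 20 counts in total over 6 libraries and for windows and clusters with at least 100 counts per library on average in 1 group (mock for CMC, Ψ-IP for comparisons with Ψ-IP, input for flow-through against input). The fits were tested on simulated data. DESeq2 1.42.0, other scalings, filters and left-out libraries were alternatives. Shares used exact permutation tests. Depth was 11575705 to 58399368 counts per library, and a locus of 20 counts is known only within a wide counting error. Replicates differed by more than sampling noise (chi-square per degree of freedom 1.73 to 6.07), so all were counted.

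For CMC and mock, deviations of same-numbered libraries from their group means correlated at 0.125, 0.146 and 0.295 over 87515 loci with more than 50 counts on average. A block for the replicate number was therefore fitted as an alternative. The main CMC fits and the main permutation tests were unpaired. With more than 10 counts on average the first and second correlations were 0.0543 and 0.0705, and libraries of different number reached 0.230. In the IP libraries not every same-numbered pair passed 0.1, and the main fits there had no block either.

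The members and all lists were chosen with earlier results of these data known. Named were the chosen locus and loci sharing its 5′ end with at least 10 counts on average, the 10 loci highest in mock and input, the 5 largest rises and falls in Ψ-IP that went 1 way in all 9 pairs (at least 100 counts), up to 10 called rises and falls with CMC (at least 100 counts), the 5 fullest windows, annotated genes and repeats, and the 5 strongest called 5′ ends each way. Ends near the chosen locus, 5′ ends upstream of the strongest rises and loci at both arms of Mir7210 were named after their values were seen.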

Additional observations from a re-analysis of the deposited data

How the results depend on the processing

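Counts limit most loci. The count of members called between CMC and mock moved from 266 to 174 with DESeq2's Wald test (4365 members had no adjusted p) and to 165 with no minimum, and ran from 105 to 313 when 1 library was left out. Called 5′ ends ran from 69 to 154 in that way. Called windows went from 4 to 10 with the replicate block, 8 with DESeq2's Wald test and 7 with loci of 24 to 33 nt only, and from 1 to 5 with 1 library left out. The replicate block changed no other call between CMC and mock among the loci, 5′ ends and windows named by rule, beside the window at 4 kb, and gave 336 called members and 127 called 5′ ends. In Ψ-IP against input the block gave 3300 called members. Members called in Ψ-IP against input ran from 1683 to 3278 with 1 library left out. In the fit of cluster sums the direction held throughout (log2 fold change 0.01 to 0.02), but on the CPM scale it was the opposite. The difference in plus-strand share (-0.0045 percentage points) turned to 0.371 with each locus counted once, to 0.0003 with loci of more than 20 counts, and ran from -0.013 to 0.0094 with 1 library left out. The difference at 29 to 31 nt ran from -2.96 to -1.39 points. The abundant locus 24092815 to 24092844, near 0 (log2 fold change 0.01), went to -0.0386 with no minimum and ran from -0.0587 to 0.10 with 1 library left out. The causes were not tested.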

Other observations

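Repeats within the cluster held different shares of the counts in the IP libraries. Loci in the DNA transposon Tigger19a held 1.63% to 1.83% of the cluster's counts in Ψ-IP, 1.24% to 1.33% in input and 0.784% to 0.891% in flow-through, with no overlap between groups. In the SINE B3A the order was another, with 1.15% to 1.27% in flow-through, 0.835% to 0.953% in Ψ-IP and 0.718% to 0.785% in input. Other repeats held less in Ψ-IP than in input with no overlap, among them L2c (2.56% to 3.05% against 3.63% to 3.77%), LTRIS4 (1.22% to 1.29% against 1.65% to 1.804%) and MER103C (0.395% to 0.419% against 0.586% to 0.612%). In mock and CMC, Tigger19a held 0.793% to 0.828% and 0.816% to 0.923%. These shares were not tested, and they were named after their values were seen.

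The few minus-strand RNAs overlapped plus-strand RNAs most often by 10 nt at their 5′ ends, the overlap left when the RNA bound by one PIWI protein guides a cut that forms the 5′ end of another. Counting the smaller of both counts for each pair of ends, 7.17% of the pairs with overlaps of 1 to 25 nt had 10 nt in mock, 6.87% in CMC, 5.88% in input, 6.45% in Ψ-IP and 7.61% in flow-through. Every other overlap in these groups had 3.31% to 4.84%. The sum is over 18571 to 46815 counts a group, all lengths included.

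Of the loci where the cluster overlaps Dlg5, 142 of 3699 were on the minus strand, the strand of the gene. The most abundant of these in mock, the 30-nt locus 24134663 to 24134692 in the annotated untranslated part of the last exon, held 24, 33 and 23 counts in mock, 36, 14 and 17 in CMC and 10, 0 and 7 in input.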
